A study of Saccharomyces cerevisiae with 16 samples.

Results

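The histone genes of Saccharomyces cerevisiae were followed in WT, rrp6Δ and rtr1Δ rrp6Δ cells by strand-specific sequencing of total RNA. The 10 genes were chosen by name, but with earlier results of these data known. They included the 8 genes of the core histones H2A (HTA1, HTA2), H2B (HTB1, HTB2), H3 (HHT1, HHT2) and H4 (HHF1, HHF2). The others were the H2A variant gene HTZ1 and the linker histone gene HHO1. All 10 were present among the 5836 open reading frame transcripts (ORF-Ts), which are themselves part of 12670 transcript rows of coding and noncoding classes. All 10 passed the filter on low counts, which removed 0 rows.

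Core histones package DNA into nucleosomes, and in budding yeast each is made from a pair of gene copies that lie in divergent couples around a shared promoter. Their mRNAs are made mainly as cells enter S phase, when Spt10 binds upstream activating sequences (UASs) and the SBF and MBF factors act, and the HIR complex holds most of the couples down at other times. Htz1 replaces H2A near promoters, Hho1 is the yeast linker histone, and Rrp6, the exonuclease that the exosome uses in the nucleus to trim and degrade RNA, has been linked with the TRAMP complex to the turnover of histone mRNA in this yeast.

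All strains were isogenic to BY4741, a haploid MATa laboratory strain, and were grown in rich medium to exponential phase. WT cells (4 libraries) carried neither deletion. The rrp6Δ strain (3 libraries, numbered 1, 3 and 4) came from the knockout collection and lacks the exonuclease in every cell. In rtr1Δ rrp6Δ cells (4 libraries) a kanamycin resistance cassette had in addition replaced RTR1, whose product removes phosphates from the tail (CTD) of RNA polymerase II. Libraries with the same number were biological replicates grown on the same day, and the 4 numbers stand for 4 growth days. The double deletion was derived from the rrp6Δ strain, so a change that arose in the rrp6Δ line may be carried by both deletion strains and cannot be told apart from the deletion.

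Library totals lay between 28765694 and 38578463 counts. Levels are given as CPM, the count relative to the TMM-scaled library size, and changes as log2 fold changes with a standard error (SE), tested by the quasi-likelihood F test of edgeR with Benjamini-Hochberg adjustment over all rows; calls were made where the adjusted p did not exceed 0.05. RRP6 was counted 3605 to 5503 times per WT library, at most 13 times per rrp6Δ library and at most 22 times per rtr1Δ rrp6Δ library. RTR1 was counted 548 to 762 times per WT library and 417 to 575 times per rrp6Δ library, while the double deletion kept 35 to 56 counts. The libraries thus matched their labelled deletions. The summed level of 6 a-cell marker genes was 1476 to 2099 CPM and that of 4 alpha-cell marker genes 28.0 to 34.3 CPM over all 11 libraries, the pattern of MATa cells. ORF-Ts held at least 78.1% of the counts of every WT library and 72.1% to 74.97% of those of the deletion strains, and their median log2 fold change was -0.29 in rrp6Δ and -0.22 in rtr1Δ rrp6Δ against WT, a general shift that each histone gene is read against below.

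The copies are close to identical, so the first 60 coding bases of each are shown with the bases that differ between the copies in capitals (RefSeq, assembly R64, coding strand). HTA1 and HTA2 share all 60, and only 1 copy is shown.
HTA1, chrIV:915530-915589, plus strand: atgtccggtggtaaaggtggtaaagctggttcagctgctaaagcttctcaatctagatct
HTB1, chrIV:914653-914712, minus strand: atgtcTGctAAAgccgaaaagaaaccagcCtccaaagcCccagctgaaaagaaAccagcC
HTB2, chrII:236492-236551, plus strand: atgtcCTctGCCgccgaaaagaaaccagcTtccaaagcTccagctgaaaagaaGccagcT
HHT1, chrII:256331-256390, plus strand: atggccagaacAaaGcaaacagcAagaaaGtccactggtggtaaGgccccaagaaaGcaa
HHT2, chrXIV:575991-576050, minus strand: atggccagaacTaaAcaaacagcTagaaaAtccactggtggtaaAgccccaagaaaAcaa
HHF1, chrII:255625-255684, minus strand: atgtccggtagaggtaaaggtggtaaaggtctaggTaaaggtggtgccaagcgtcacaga
HHF2, chrXIV:576727-576786, plus strand: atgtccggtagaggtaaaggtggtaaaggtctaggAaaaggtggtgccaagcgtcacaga

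Over the whole coding sequence the copies differed at 25 of 399 bases for HTA1 and HTA2, 48 of 396 for HTB1 and HTB2, 28 of 411 for HHT1 and HHT2 and 8 of 312 for HHF1 and HHF2. The encoded proteins differed at 2 residues for H2A, at 4 for H2B and at 0 for H3 and H4. Htz1 shared 58.3% of aligned residues with the HTA1 product. A read can be assigned to 1 copy only where it covers a difference: 4.57% of the 50-base windows of the HTA genes, 0 of the HTB windows, 12.15% of the HHT windows and 21.29% of the HHF windows occurred elsewhere in the genome, and at 75 bases only HHF windows did (2.52%). The read length and the treatment of such reads are not given in the sources used here, so the split between HHF1 and HHF2 is the least certain of the copy values. All 10 genes have a single coding exon, and no annotated gene overlaps them.

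The 4 couples lie on chromosomes II, IV and XIV. HTB1 (YDR224C, chrIV:914317-914712) and HTA1 (YDR225W, chrIV:915530-915928) are 817 bases apart. HTA2 (YBL003C, chrII:235394-235792) and HTB2 (YBL002W, chrII:236492-236887) are 699 bases apart. HHF1 (YBR009C, chrII:255373-255684) and HHT1 (YBR010W, chrII:256331-256741) are 646 bases apart, and HHT2 (YNL031C, chrXIV:575640-576050) and HHF2 (YNL030W, chrXIV:576727-577038) are 676 bases apart. HTZ1 (YOL012C, chrXV:303579-303983) and HHO1 (YPL127C, chrXVI:308828-309604) stand alone and have no histone partner. Every couple held at least 1 match to the histone UAS in the DNA between its coding sequences. For HTZ1 and HHO1 only the window upstream of the coding start that is given below was searched, and it held no match. The matches of the couples are shown here in capitals with 10 bases on either side, because these are the elements that the couples share.
HTB1 and HTA1, first, chrIV:915103-915138, plus strand: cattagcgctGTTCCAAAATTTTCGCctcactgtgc
HTB1 and HTA1, second, chrIV:915127-915162, minus strand: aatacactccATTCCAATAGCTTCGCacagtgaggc
HTA2 and HTB2, chrII:236098-236133, minus strand: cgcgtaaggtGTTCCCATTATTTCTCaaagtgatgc
HHF1 and HHT1, chrII:255934-255969, minus strand: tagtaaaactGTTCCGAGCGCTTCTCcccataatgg
HHT2 and HHF2, chrXIV:576336-576371, minus strand: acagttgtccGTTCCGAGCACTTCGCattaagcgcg

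The matches lay 259 to 424 bases from the coding starts, and the only pair of matches, between HTB1 and HTA1, overlapped in their flanks and stood on opposite strands. Searched on both strands, the 400 bases upstream of the coding start held a histone UAS in 7 of the 8 core genes, in 0 of HTZ1 and HHO1, and in 52 of all 6002 coding genes (0.87%); the UASs of HTB1 lie 400 and 424 bases away and so outside its window. The SBF motif (CNCGAAA), present in 18.76% of the same windows, was found upstream of HTB1, HHF2, HTZ1 and HHO1. The MBF motif (ACGCGT), present in 4.5%, was found once, in the stretch shared by HTA2 and HTB2. A match is a description of letters and not of binding.

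Per kb of coding length, HHT2 had the highest mean level in WT cells, at 2254 ± 274 CPM per kb (SD, n = 4). HHF2 followed at 1679 ± 106, HHF1 at 1629 ± 234, HTA1 at 1415 ± 131, HTB1 at 1407 ± 59.8, HHT1 at 1331 ± 125, HTB2 at 1105 ± 90.3 and HTA2 at 794 ± 35.0 CPM per kb. The range of HHF1 overlapped those of all core genes but HTB2 and HTA2, the range of HTA1 also that of HHF2, and HTA1, HTB1 and HHT1 overlapped each other, whereas HTA2 lay below every other core gene in all 4 libraries. HTZ1 (186 ± 9.78) and HHO1 (87.7 ± 5.68 CPM per kb) were far below the core genes. Summed over the copies, the WT levels were 2209 ± 137 for H2A, 2512 ± 134 for H2B, 3585 ± 250 for H3 and 3308 ± 338 CPM per kb for H4.

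In rrp6Δ cells every histone mRNA was lower than in WT. All 10 genes were called lower and none higher, and in all 10 the 3 rrp6Δ libraries lay below all 4 WT libraries. The share of ORF-T rows with such a separation was not counted, so it cannot be read as particular to the histone genes. The decline ran from 1.35-fold for HTZ1 to 2.08-fold for HHO1, with a median log2 fold change of -0.62 over the 10 genes. Of all ORF-T rows 42.5% were called lower and 5.53% higher in this comparison (24.7% and 38.5% of all 12670 rows), so a call of lower was common, and the histone genes exceeded the general shift in size: all 10 lay below the ORF-T median, by a median of 0.33 on the log2 scale. A call of lower together with a decline of at least 1.5-fold was seen in 7 of the 10 genes and in 12.7% of ORF-T rows. In bulk RNA, fewer cells that express a gene and less RNA per cell cannot be told apart.

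**Figure D1:**
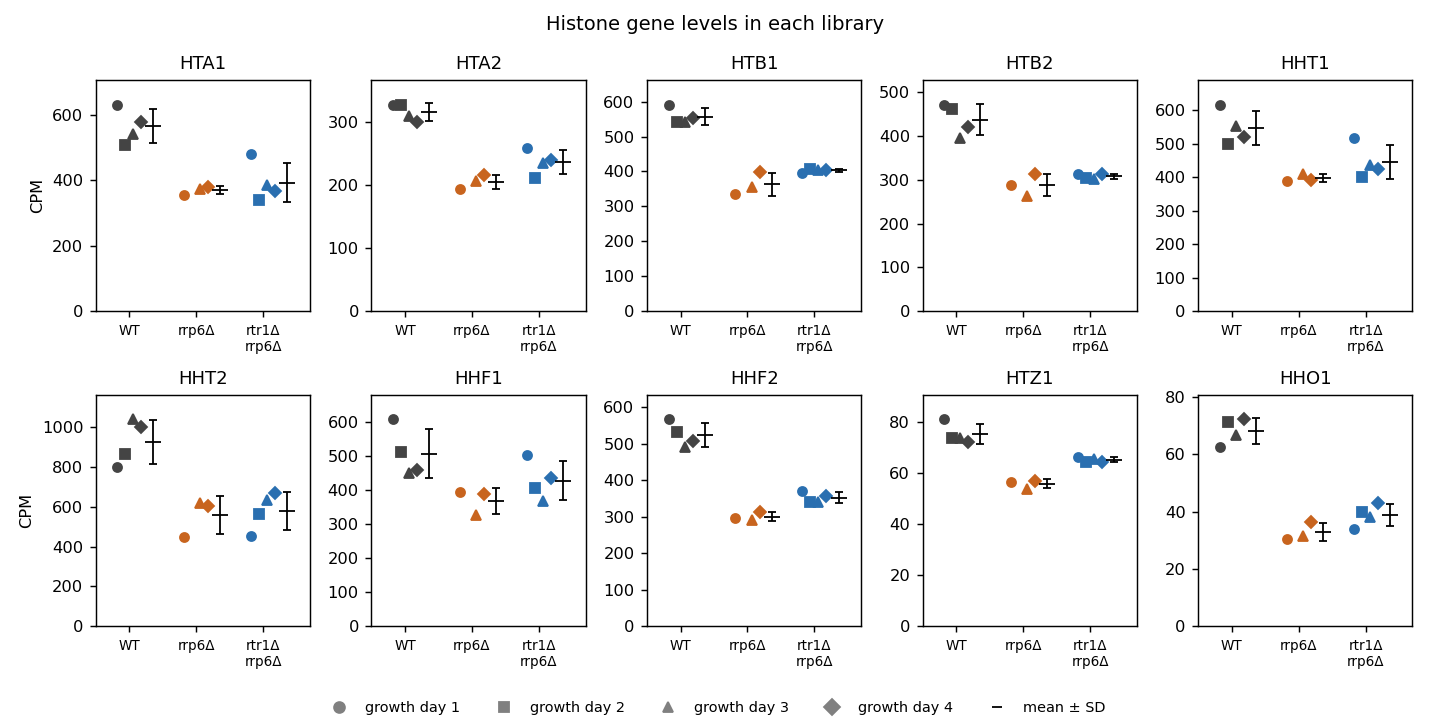
Levels of the 10 histone genes in CPM (linear axis from 0) in each library, by strain. Symbols mark the growth day and black bars the mean ± SD of the 4 WT, 3 rrp6Δ and 4 rtr1Δ rrp6Δ libraries. The rrp6Δ libraries lie below all WT libraries in every panel, and HHT2 is lowest on growth day 1 in each strain.

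For the H2A genes, HTA1 was at 631, 508, 541 and 578 CPM in WT replicates 1 to 4, at 356, 373 and 380 CPM in rrp6Δ replicates 1, 3 and 4 and at 479.8, 340.4, 384 and 366 CPM in rtr1Δ rrp6Δ. HTA2 was at 328, 329, 309.7 and 300.5 CPM in WT, at 194, 207 and 217 CPM in rrp6Δ and at 259.7, 212, 236 and 241 CPM in rtr1Δ rrp6Δ. Both copies thus separated WT from each deletion strain without overlap, while the deletion strains overlapped each other, with replicate 1 the highest of the double deletion. In rrp6Δ the log2 fold change was -0.61 (SE 0.07, adjusted p = 0.00114) for HTA1 and -0.62 (SE 0.06, adjusted p = 0.00011) for HTA2.

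For the H2B genes, HTB1 was at 592, 541, 542 and 554 CPM in WT, at 335, 354 and 399 CPM in rrp6Δ and at 396, 408, 406 and 404 CPM in rtr1Δ rrp6Δ. HTB2 was at 472, 463, 396 and 420.4 CPM in WT, at 287, 264 and 314 CPM in rrp6Δ and at 312, 305, 301 and 312 CPM in rtr1Δ rrp6Δ. Again no WT library overlapped a deletion library, and the 4 double deletion libraries differed little from each other. The log2 fold change in rrp6Δ was -0.62 (SE 0.08, adjusted p = 7e-05) for HTB1 and -0.60 (SE 0.09, adjusted p = 0.00018) for HTB2, values that differ from those of the H2A genes by less than 1 SE.

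For the H3 genes, HHT1 was at 617, 499, 553 and 519.6 CPM in WT, at 389, 410.3 and 392 CPM in rrp6Δ and at 517, 399.8, 435 and 423 CPM in rtr1Δ rrp6Δ. HHT2, the copy with the higher level, was at 799.9, 865, 1040 and 1000 CPM in WT, at 449, 621 and 605 CPM in rrp6Δ and at 453, 565, 635 and 670.4 CPM in rtr1Δ rrp6Δ. HHT1 separated WT from rrp6Δ but not from the double deletion, whose replicate 1 reached the WT range, whereas HHT2 separated WT from both. The log2 fold change in rrp6Δ was -0.46 (SE 0.07, adjusted p = 0.0034) for HHT1 and -0.73 (SE 0.17, adjusted p = 0.00207) for HHT2.

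For the H4 genes, HHF1 was at 609, 514, 450.1 and 459.6 CPM in WT, at 394, 326 and 388 CPM in rrp6Δ and at 505, 406, 368 and 437 CPM in rtr1Δ rrp6Δ. HHF2 was at 566, 531, 489.6 and 508 CPM in WT, at 295, 289.5 and 313 CPM in rrp6Δ and at 369.5, 341, 339 and 358 CPM in rtr1Δ rrp6Δ. The double deletion libraries overlapped WT for HHF1, which was highest on day 1 in each strain, in rrp6Δ only narrowly above day 4. HHF2 gave 3 separate groups with the double deletion in between. The log2 fold change in rrp6Δ was -0.46 (SE 0.13, adjusted p = 0.0136) for HHF1 and -0.81 (SE 0.06, adjusted p = 6.3e-06) for HHF2, the largest change of a core gene.

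Outside the core, HTZ1 was at 81.1, 73.7, 73.9 and 72.3 CPM in WT, at 56.7, 53.9 and 57.0 CPM in rrp6Δ and at 66.5, 64.5, 65.6 and 64.5 CPM in rtr1Δ rrp6Δ. HHO1 was at 62.6, 71.1, 66.7 and 72.2 CPM in WT, at 30.5, 31.4 and 36.4 CPM in rrp6Δ and at 33.9, 39.8, 38.2 and 43.0 CPM in rtr1Δ rrp6Δ. HTZ1 formed 3 separate groups in the order WT, double deletion and rrp6Δ, and HHO1 was clear of WT in both deletion strains. HTZ1 changed least (log2 fold change -0.43, SE 0.05, adjusted p = 0.00042) and HHO1 most (-1.06, SE 0.09, adjusted p = 3.2e-06). Of ORF-T rows, 2.31% had a lower log2 fold change in rrp6Δ than HHO1 and 28.2% a lower one than HTZ1. For the core genes this share ran from 5.36% (HHF2) to 24.3% (HHF1). CSE4, the gene of the centromeric H3 variant and no member of the set, fell by 0.50 on the log2 scale in rrp6Δ (adjusted p = 0.00042) and by 0.29 in the double deletion (adjusted p = 0.00967).

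**Figure D2:**
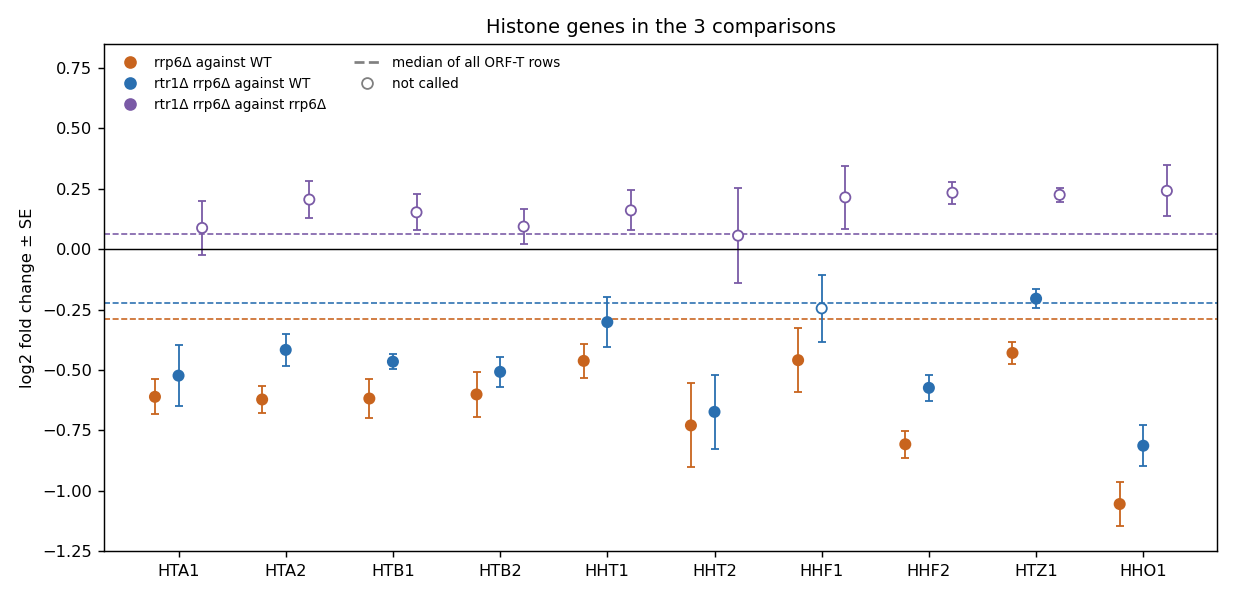
Log2 fold changes (± SE) of the 10 histone genes in the 3 comparisons, filled where the adjusted p was 0.05 or less. Dashed lines give the median of all ORF-T rows in the same color, at -0.29, -0.22 and 0.06: all 10 genes lie below it in rrp6Δ against WT, and 9 lie above it in rtr1Δ rrp6Δ against rrp6Δ.

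The decline did not rest on 1 growth day. Within days 1, 3 and 4, the rrp6Δ library was below the WT library of the same day for all 10 genes each time, with median log2 differences of -0.79, -0.58 and -0.47. The size of the difference therefore varied between days, with day 1 the largest. The share of ORF-T rows that were lower on each day was not counted. Without any library of day 1, a setting chosen after seeing the data, 10 genes were still called lower, beside 50.1% of ORF-T rows. Leaving out any single WT or rrp6Δ library also left 10 called, beside 36% to 39.8% of ORF-T rows.

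The shares of the deposited counts that the genes took, which use no scaling factor, moved the same way. The 10 genes together took between 0.408% and 0.443% of all counts in the WT libraries, against 0.306% to 0.325% for rrp6Δ and 0.317% to 0.343% for the double deletion. Among ORF-T counts alone, the 8 core genes took between 0.485% and 0.541% in WT, against 0.403% to 0.426% for rrp6Δ and 0.417% to 0.446% for the double deletion. On both denominators the deletion strains lay wholly below WT and overlapped each other.

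How much of the change was called depended on the scaling of libraries. With TMM factors from ORF-T rows alone, which moved the median of all rows by 0.30 in rrp6Δ and 0.23 in the double deletion against WT and so removed the general shift of ORF-Ts, 7 of the 10 genes were called lower in rrp6Δ, with a median log2 fold change of -0.32, while 9.39% of ORF-T rows were called lower and 10.7% higher. The 3 genes no longer called were HHT1 (-0.17, adjusted p = 0.209), HHF1 (-0.16, adjusted p = 0.316) and HTZ1 (-0.14, adjusted p = 0.139). HHO1 kept the largest change under that scaling, at -0.77. Upper-quartile factors (shift of 0.18 and 0.12) gave 8 genes lower, beside 17.7% of ORF-T rows, and RLE factors (shift of -0.11 in both) gave 10, beside 60.3%. Over all alternatives the log2 fold change of HHO1 ran from -1.17 to -0.77, that of HHF2 from -0.92 to -0.51 and that of HHT2 from -0.87 to -0.44, with every call kept.

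**Figure D3:**
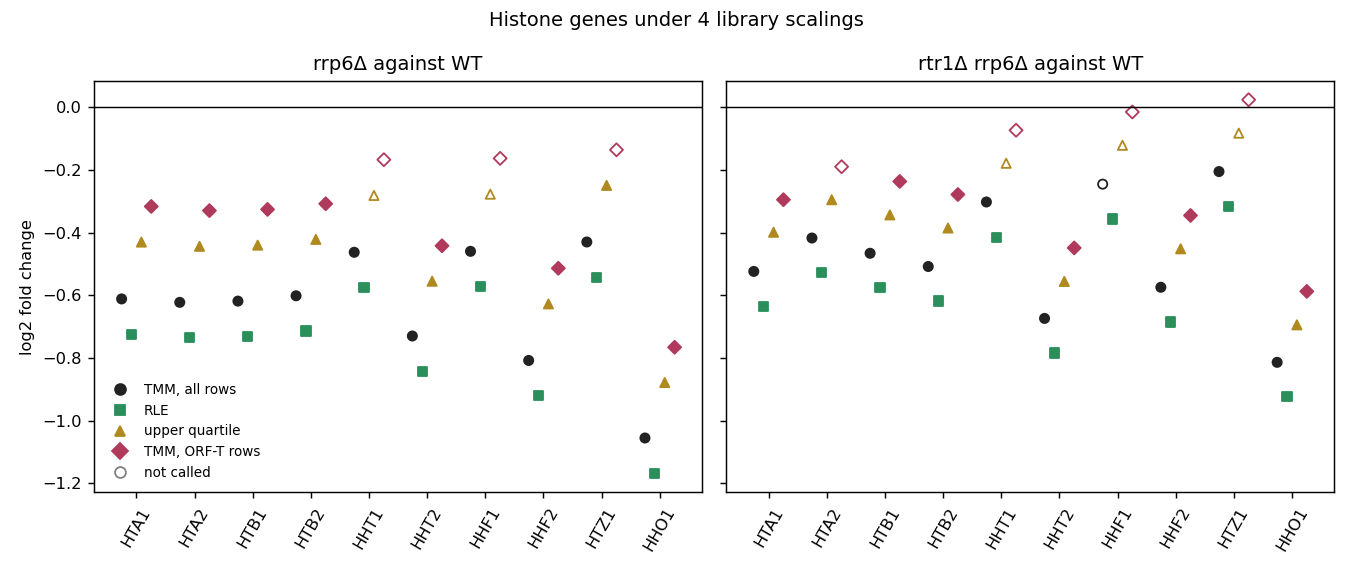
Log2 fold changes of the 10 histone genes against WT under 4 library scalings (TMM over all rows, RLE, upper quartile, TMM over ORF-T rows), with open symbols where a gene was not called. In rrp6Δ all values are below 0, and with ORF-T scaling 7 genes remain called in rrp6Δ and 6 in rtr1Δ rrp6Δ, where HTZ1 lies at 0.02.

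In rtr1Δ rrp6Δ cells, which lack Rtr1 as well, histone mRNAs were again lower than in WT, and every log2 fold change was smaller in size than in rrp6Δ. The difference between the deletion strains is tested below. Of the 10 genes, 9 were called lower and 0 higher, with a median log2 fold change of -0.49, beside 34.2% of ORF-T rows called lower and 5.53% higher (21.2% and 36.8% of all rows). The libraries did not overlap WT in 8 genes, a separation whose share among ORF-T rows was not counted. A call of lower with a decline of at least 1.5-fold was seen in 2 genes, beside 9.05% of ORF-T rows. Those were HHO1 (-0.81, SE 0.09, adjusted p = 1.4e-05) and HHT2 (-0.67, SE 0.15, adjusted p = 0.00204), with HHF2 next at -0.57 (SE 0.05, adjusted p = 5.8e-05).

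The H2A and H2B genes fell by 0.42 to 0.52 on the log2 scale in the double deletion, with HTA1 at -0.52, HTB2 at -0.51, HTB1 at -0.47 and HTA2 at -0.42 and adjusted p from 0.00035 to 0.00194. HHT1 was called (-0.30, adjusted p = 0.0241) although its groups overlapped. HHF1 was not called (-0.25, SE 0.14, adjusted p = 0.123), though it lay below the WT library of the same day on each of the 4 days, by 0.07 to 0.34. HTZ1 was called at -0.21 (adjusted p = 0.0264), which is close to the ORF-T median of -0.22, and it was the 1 gene that did not lie below that median. With the growth day as a block, HHF1 was called too (adjusted p = 0.00853), giving 10 genes lower beside 60.5% of ORF-T rows in that fit. All 10 genes were below WT on each of the 4 growth days, a pattern whose share among ORF-T rows was not counted.

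Single libraries and scalings mattered more in this comparison. The calls of HHT1 and HTZ1 were lost without WT replicate 1 or without replicate 2, 3 or 4 of the double deletion, with adjusted p from 0.0508 to 0.0733. In those fits 7 genes were called lower, beside 27.5% to 31.1% of ORF-T rows. With ORF-T scaling 6 genes were called lower (595 ORF-T rows, 10.2%, against 10.5% higher), and HTZ1 moved to 0.02 (adjusted p = 0.8). HHO1 and HHT2 stayed called under all alternatives run.

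No histone gene was called different between rtr1Δ rrp6Δ and rrp6Δ cells by edgeR, where 0.308% of ORF-T rows were called lower and 0.12% higher (0.766% and 0.182% of all rows). All 10 log2 fold changes were positive nevertheless, from 0.06 for HHT2 to 0.24 for HHO1, with a median of 0.18 against an ORF-T median of 0.06. In HHF2 (0.23, SE 0.05, adjusted p = 0.314) and HTZ1 (0.23, SE 0.03, adjusted p = 0.256) the 4 double deletion libraries lay above the 3 rrp6Δ libraries, and in the other 8 genes they overlapped. How many ORF-T rows separated in this way was not counted. At an unadjusted p under 0.05 stood 4 genes, HTA2, HHF2, HTZ1 and HHO1. The share of ORF-T rows under that unadjusted threshold was not counted. Between 85.4% (HTA2) and 90.7% (HHO1) of ORF-T rows had a lower log2 fold change than these 4 genes. DESeq2 called 2 genes higher, HHF2 (adjusted p = 0.0313) and HTZ1 (adjusted p = 0.0268), and the fit with the growth day as a block also 2, HTZ1 (adjusted p = 0.0277) and HHO1 (adjusted p = 0.033). These fits also called more ORF-T rows higher, 1.23% with DESeq2 and 6.72% with the block. By day, the double deletion was above rrp6Δ for every gene on days 1 and 3 and below it for 2 genes on day 4. Shares of ORF-T rows by day were not counted. These comparisons share the rrp6Δ and WT libraries, so the order of the strains was not measured independently in each.

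The balance between the copies was read from the ratio of counts within a library, which no scaling changes. HTA2 stood at 0.565 ± 0.060 of HTA1 in WT (SD, n = 4), 0.557 ± 0.013 in rrp6Δ (n = 3) and 0.609 ± 0.049 in rtr1Δ rrp6Δ (n = 4). HTB2 stood at 0.785 ± 0.054, 0.796 ± 0.056 and 0.763 ± 0.021 of HTB1. For these dimer genes the strains overlapped, and the log2 differences between strains were between -0.06 and 0.13, with exact two-sided permutation p from 0.229 to 0.971.

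The ratio of HHF2 to HHF1 was 0.930, 1.03, 1.09 and 1.11 in WT, 0.748, 0.888 and 0.807 in rrp6Δ and 0.732, 0.840, 0.922 and 0.819 in rtr1Δ rrp6Δ. Neither deletion strain overlapped WT, and HHF2 was lower relative to HHF1 in both. The log2 difference was -0.35 (SE 0.09) in rrp6Δ, with exact permutation p = 0.0571, and -0.33 (SE 0.09) in the double deletion, with exact permutation p = 0.0286. Both are the smallest p the design allows, and adjusted over the 12 ratio tests both came to 0.343. The same-day differences of the double deletion also gave the smallest sign-flip p that 4 pairs allow (exact p = 0.125). This is also the couple of copies whose reads are hardest to assign.

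The ratio of HHT2 to HHT1 was 1.30, 1.73, 1.88 and 1.92 in WT, 1.16, 1.51 and 1.54 in rrp6Δ and 0.877, 1.41, 1.46 and 1.58 in rtr1Δ rrp6Δ. On growth day 1 it was the lowest of its strain each time. Its log2 difference from WT was -0.28 (SE 0.19, exact permutation p = 0.229) in rrp6Δ and -0.38 (SE 0.23, exact permutation p = 0.143) in the double deletion, both 0.549 after adjustment. Without day 1 these were -0.27 and -0.31. HHT2 itself lay 0.20, 0.30 and 0.34 on the log2 scale below its strain mean in the day 1 libraries of WT, rrp6Δ and the double deletion, and its share of the core histone counts ran from 13.8% to 24.1% over all libraries. What set day 1 apart was not tested.

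**Figure D4:**
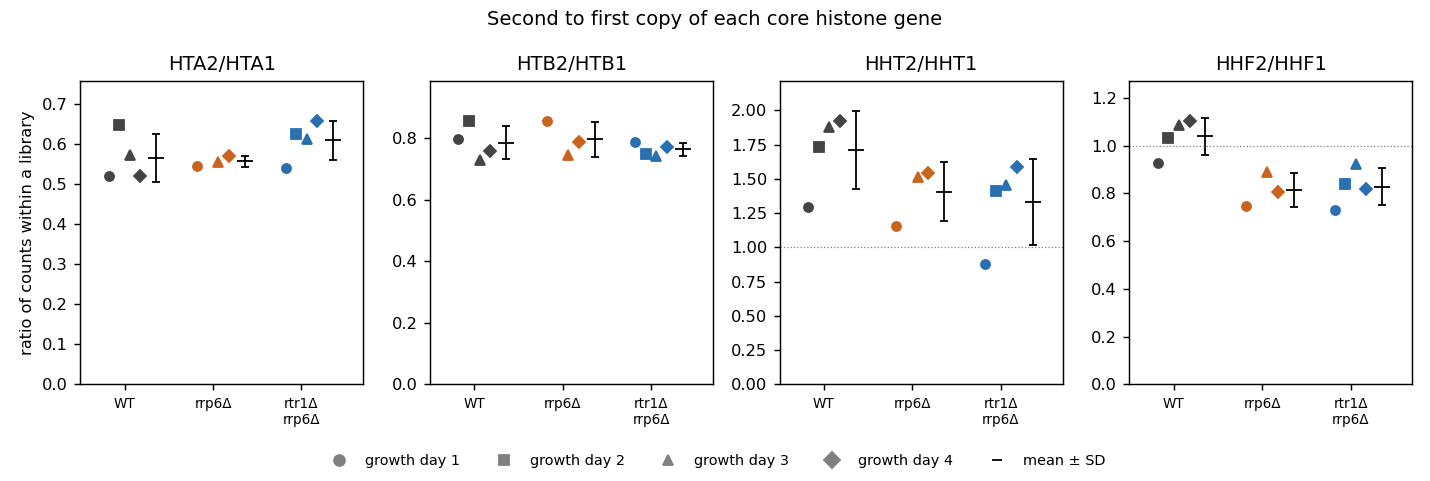
Ratio of the counts of the second to the first copy of each core histone gene within each library (linear axis from 0, dotted line at 1), with growth days as symbols and black bars for the mean ± SD. HHF2/HHF1 is below the WT libraries in all deletion libraries, and HHT2/HHT1 is lowest on growth day 1 in each strain.

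Within strains, most histone genes varied with the mean of the core genes, though not in every library. On day 1 in rrp6Δ the log2 deviation from the strain mean was 0.10 for HHF1 and -0.11 for HTB1. Over the 11 libraries, deviations from the strain means followed those of the mean of the 8 core genes with Pearson r of 0.61 to 0.87 for 7 core genes and 0.66 for HTZ1, the core genes being part of that mean. HHT2 (r = -0.20) and HHO1 (r = -0.14) did not follow it. These are descriptions over libraries that share growth days, with no test, and the share of ORF-T rows with such an r was not counted.

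Antisense transcripts (ASTs) were listed for 2 of the 10 genes, HTA1 and HHO1. The antisense row of HTA1 was counted 13, 22, 8 and 4 times in WT, 73, 96 and 89 times in rrp6Δ and 91, 105, 120 and 63 times in rtr1Δ rrp6Δ. The antisense row of HHO1 was counted 19, 24, 16 and 13 times in WT, 124, 96 and 87 times in rrp6Δ and 80, 101, 96 and 96 times in rtr1Δ rrp6Δ. Both rows were well above WT in every deletion library, and the deletion strains overlapped each other.

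For AS_HTA1 the mean level went from 0.386 CPM in WT to 2.48 in rrp6Δ and 2.77 in the double deletion, with log2 fold changes of 2.71 (SE 0.48, adjusted p = 0.00013) and 2.86 (SE 0.54, adjusted p = 5.6e-05). For AS_HHO1 it went from 0.582 to 3.00 and 2.67 CPM, with log2 fold changes of 2.37 (SE 0.31, adjusted p = 4.5e-06) and 2.21 (SE 0.23, adjusted p = 5.9e-06). Both rows were called higher in both strains, beside 54.3% and 51.3% of all AST rows, and neither was called between the deletion strains, where 0.229% of AST rows were higher. The authors kept AST annotations because they changed in rrp6Δ cells, so neither the calls in that strain nor the AST shares are independent evidence. The double deletion also lacks RRP6 and was compared with the same WT libraries, so its calls are not independent of that choice either. At 2.48 to 3.00 CPM the antisense RNA remained far below the sense mRNA of the same genes, 369 CPM for HTA1 and 32.8 CPM for HHO1 in rrp6Δ, both of which fell.

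Of the 12 nearest genes outside the set, 3 were called lower and 1 higher in rrp6Δ, each by less than 1.5-fold. In rtr1Δ rrp6Δ 2 were lower and 2 higher, again by less than 1.5-fold, and between the deletion strains 0 were called. Of ORF-T rows 42.5% and 34.2% were called lower against WT, and 5.53% higher in either strain. Between the deletion strains 0.308% of ORF-T rows were lower and 0.12% higher. For the 12 neighbours the median log2 fold change was -0.21 in rrp6Δ and -0.13 in the double deletion, near the ORF-T medians of -0.29 and -0.22. The histone genes had medians of -0.62 and -0.49. No difference between these medians was tested.

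Most genes that act on histone promoters were called lower as well, with a smaller median change. Of 13 regulators, 12 were called lower in rrp6Δ and 11 in the double deletion and 0 higher, beside 42.5% and 34.2% of ORF-T rows lower. Their medians were -0.39 and -0.38. Among them was SPT10, which encodes a factor that binds histone UASs (-0.47 in both strains, adjusted p = 0.00208 and 0.00118). RTT106, a histone chaperone that acts with the HIR complex, was at -0.47 and -0.34 (adjusted p = 0.00022 and 0.00131). SWI6, a subunit of SBF and MBF, was at -0.53 in rrp6Δ (adjusted p = 0.00194). SPT21, a partner of Spt10, was at -0.82 in the double deletion (adjusted p = 0.0012). With ORF-T scaling only 0 and 2 of the 13 were called lower, beside 9.39% and 10.2% of ORF-T rows.

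Of 15 chaperone and deposition genes, 9 were lower in rrp6Δ and 6 in the double deletion, beside 42.5% and 34.2% of ORF-T rows. The list medians were -0.44 and -0.26. HIF1, a chaperone of H3 and H4, was at -0.63 and -0.60 (adjusted p = 0.00066 and 0.00053), and CAC2, a subunit of the CAF-1 assembly complex, at -0.81 and -0.56 (adjusted p = 0.00076 and 0.00531). VPS75, a chaperone that works with the acetyltransferase Rtt109, was at -0.47 in rrp6Δ (adjusted p = 0.00192), and SWR1, the ATPase that places Htz1 into nucleosomes, at -0.41 in the double deletion (adjusted p = 0.00852). With the growth day as a block 13 and 12 were lower, beside 68.1% and 60.5% of ORF-T rows. With ORF-T scaling 2 and 1 were called lower, beside 9.39% and 10.2% of ORF-T rows, and 0 and 1 higher, beside 10.7% and 10.5%.

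Of 15 mRNA decay genes, which include exosome cofactors and the cytoplasmic decay machinery, 3 were lower and 1 higher in rrp6Δ. In the double deletion 2 were lower and 1 higher, beside 42.5% and 34.2% of ORF-T rows lower and 5.53% higher in either strain. With the growth day as a block 12 and 8 were lower, beside 68.1% and 60.5% of ORF-T rows. LSM1, a decapping activator, was at -0.45 and -0.27 (adjusted p = 0.00035 and 0.00776), and DCP2, the decapping enzyme, at -0.33 and -0.30 (adjusted p = 0.00573 and 0.00576). AIR2, a subunit of the TRAMP complex, was the gene that rose (0.29 and 0.47, adjusted p = 0.0154 and 0.00044). The list's medians of -0.23 and -0.20 were close to those of all ORF-Ts.

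Since histone mRNAs are made in S phase, genes of the cell cycle phases were set beside them. These lists too were chosen with earlier results of these data known. Of 18 genes expressed from G1 to S phase, 18 were called lower in both deletion strains, beside 42.5% and 34.2% of ORF-T rows. The list medians were -0.67 and -0.62. CLN1, a G1 cyclin, was at -0.85 and -0.80 (adjusted p = 1.1e-05 and 8.0e-06), RAD27, the flap endonuclease of DNA replication, at -0.65 and -0.60 (adjusted p = 5.1e-05 and 5e-05), PRI2, a primase subunit, at -0.69 in rrp6Δ (adjusted p = 6.3e-05), and CLB6, an S phase cyclin, at -1.39 in the double deletion (adjusted p = 6.1e-05). Their summed level was 1290 to 1586 CPM in WT, against 778 to 909 CPM for rrp6Δ and 769 to 1000 CPM for the double deletion, without overlap between WT and the deletion strains. With ORF-T scaling 9 and 12 of the 18 remained lower, beside 9.39% and 10.2% of ORF-T rows.

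Of 14 genes of G2 to M phase, 6 were lower in rrp6Δ and 2 in the double deletion, with medians of -0.34 and -0.26. Of 12 genes of M to G1 phase 7 and 8 were lower, with medians of -0.48 and -0.56. The shares of ORF-T rows called lower were 42.5% and 34.2%. With the growth day as a block 14 and 11 of the G2 to M genes were lower, beside 68.1% and 60.5% of ORF-T rows. The summed level of the M to G1 genes also left no overlap, at 3353 to 4784 CPM in WT against 2572 to 3067 CPM for rrp6Δ and 2491 to 2540 CPM for the double deletion. SPO12, a regulator of mitotic exit, was at -0.48 in rrp6Δ (adjusted p = 0.00073), with SWI5 and CDC20 at -0.40 and -0.30 (adjusted p = 0.0164 and 0.0214), and MYO1, the type II myosin of the contractile ring, was at -0.43 in the double deletion (adjusted p = 0.0338). DSE1, a daughter cell gene of cell separation, was at -0.77 and -1.07 (adjusted p = 0.00092 and 3.4e-05), ASH1, a daughter cell repressor, at -0.67 and -0.68 (adjusted p = 0.00099 and 0.00044), the cell wall gene PIR1 at -0.55 in rrp6Δ (adjusted p = 0.00047) and DSE2 at -0.97 in the double deletion (adjusted p = 0.00012). None of the genes of these lists was called between the deletion strains in the edgeR fit without a block, while with the growth day as a block 2 G1 to S phase genes were called lower and 1 higher, and 1 chaperone gene and 1 G2 to M phase gene higher. The fit with the block called 1.94% of ORF-T rows lower and 6.72% higher. The part of the cell cycle distribution in the histone result was not tested.

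**Figure D5:**
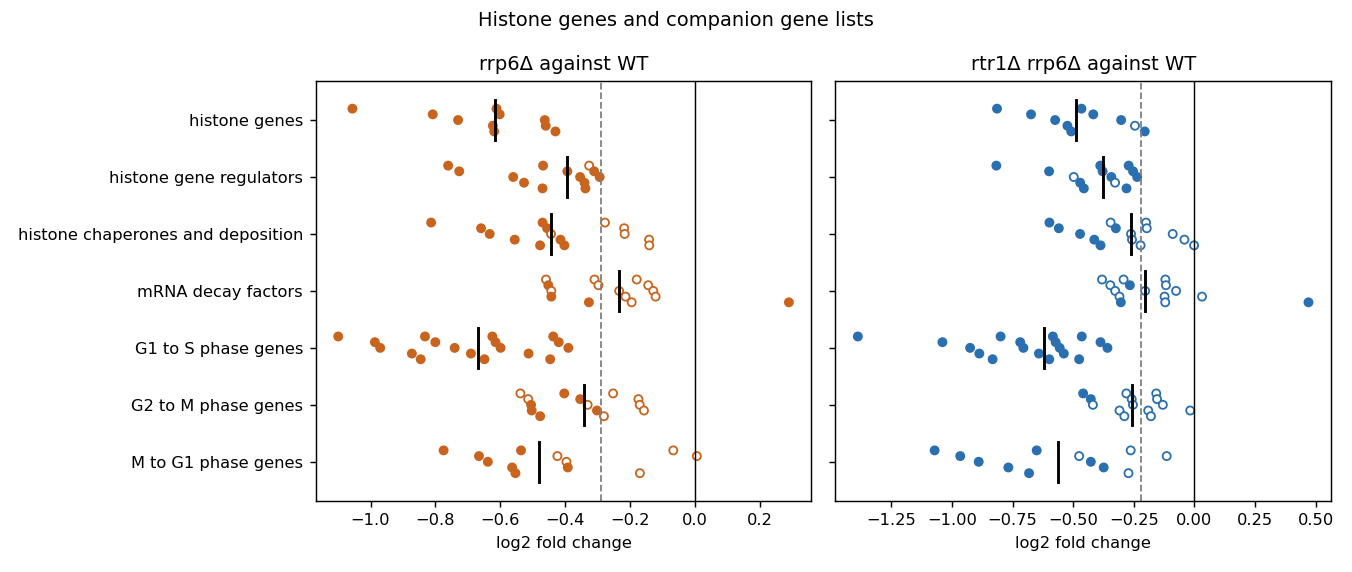
Log2 fold changes against WT of the histone genes and of the companion lists, 1 point per gene, filled where called, with list medians as black bars and the ORF-T median as a dashed line. By median, the histone genes (-0.62 and -0.49) and the G1 to S phase genes (-0.67 and -0.62) lie furthest to the left in rrp6Δ. In rtr1Δ rrp6Δ the M to G1 phase genes (-0.56) lie further left than the histone genes.

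The genes whose levels over all 11 libraries were most like the mean of the 8 core genes, among 5675 ORF-T rows, were TRR1 (Pearson r = 0.987), RTT106 (0.986), GRX4 (0.983), ARP4 (0.982) and SNL1 (0.980). TRR1, a cytoplasmic thioredoxin reductase, was at 378, 271 and 302 CPM in WT, rrp6Δ and the double deletion, so that the strain order of the core genes recurred. By deviations from the strain means, which leave the strain differences out, the leading genes were others: CDC43 (0.925), SES1 (0.908), MNN2 (0.906), THS1 (0.877) and YHB1 (0.875). SES1 and THS1 encode the cytosolic seryl- and threonyl-tRNA synthetases. These likenesses are descriptions over 11 libraries of 3 strains.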

How the data were processed

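Total RNA depleted of ribosomal RNA was made into stranded libraries. Alignment to sacCer3 was done by the authors in STAR (2.5.2b), and reads falling on each transcript were tallied by featureCounts (Subread 1.5.0). The deposited count values are whole numbers with unequal library totals and were taken as raw counts, although the authors' legend calls them normalized. The same table holds the authors' sums, fold changes and FDR values, which were not used. Columns were assigned by header. Of 16 samples, 11 were analysed; 1 per-sample column that leaves its genotype open was not used, and the rtr1Δ libraries and spike-in RNA were not analysed here.

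Counts of all 12670 rows were fitted in edgeR 4.0.16 (R 4.3.3) with filterByExpr, TMM factors and 1 mean per strain. Log2 CPM values used a prior count of 2. SEs are from log2 CPM of the libraries. Alternatives were RLE, upper-quartile and ORF-T scaling, no filter, a mean count of at least 50, DESeq2 1.42.0, the replicate number as a block, only the groups compared, a 1.5-fold minimum, and leaving out each library. Code was tested on simulated data. Ratios were compared by exact permutation over libraries with adjustment over 12 tests.

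According to the study's methods, strains of one replicate were grown on the same day, so the numbers pair the libraries. Deviations from strain means correlated at 0.24 to 0.83 in 10 same-number pairs and at -0.68 to 0.37 in 30 others.

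The members and the lists were chosen with earlier results of these data known. Named are all members, their antisense rows, CSE4, the deleted genes, per list up to 3 called genes of smallest adjusted p in each comparison, neighbours called with at least 1.5-fold, and the 5 genes of highest likeness by either measure (rows with a mean of at least 50 counts). One gene that this rule names is not reported here. Sequences, positions and symbols come from RefSeq R64, the assembly of sacCer3. The bounds of the ORF-T rows are not in the table, so lengths are coding lengths.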

Additional observations from a re-analysis of the deposited data

How the results depend on the processing

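In rrp6Δ against WT, 10 histone genes were called lower under every setting except upper-quartile scaling (8), ORF-T scaling (7) and the 1.5-fold minimum (7). In rtr1Δ rrp6Δ against WT, 9 were called, 2 with the 1.5-fold minimum and 6 to 10 under the other settings. The share of ORF-T rows called lower ran over the settings from 9.39% to 68.1% in rrp6Δ and from 9.05% to 60.5% in the double deletion. Between the deletion strains, DESeq2 and the replicate block each called 2 genes higher, beside 1.23% and 6.72% of ORF-T rows. Beyond the calls given with the results, with the replicate block, which pairs the libraries of a growth day and so drops WT replicate 2, the HTA2/HTA1 difference in rrp6Δ was 0.0513 (exact p = 0.5) in place of -0.0156, the same value as without that library and without pairing. For HHF2/HHF1 in the double deletion against WT the difference was -0.329 with the block (exact p = 0.125) and -0.3235 without growth day 1 (exact p = 0.1), neither of which can reach 0.05; without 1 library it ran from -0.3823 to -0.271 (exact p = 0.0571, again the smallest possible).

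Values that changed sign lay near 0 and were not called. Against rrp6Δ, HTA1 in the double deletion was -0.0454 without growth day 1, HHT2 was -0.0007 with upper-quartile and -0.0068 with ORF-T scaling, and AS_HHO1 was 0.083 without growth day 1. HTZ1 in the double deletion against WT was 0.0244 with ORF-T scaling, and HTB2/HTB1 in rrp6Δ was -0.0259 without growth day 1. Leaving out 1 library in turn gave ranges across 0 for the double deletion against rrp6Δ in HTA1 (-0.0186 to 0.1505), HHT2 (-0.0784 to 0.1628), AS_HTA1 (-0.0246 to 0.3512) and AS_HHO1 (-0.3227 to 0.0762), and for the HTA2/HTA1 (-0.0534 to 0.0513) and HTB2/HTB1 (-0.0342 to 0.0663) ratios in rrp6Δ, HTB2/HTB1 in the double deletion against WT (-0.0738 to 0.0019), and HHT2/HHT1 (-0.2338 to 0.0907) and HHF2/HHF1 (-0.0361 to 0.0881) between the deletion strains. The mean count minimum of 50 removed both antisense rows, so they have no value there. Of companion lists, counts lower in rrp6Δ ran over all settings from 0 to 13 for regulators, 2 to 14 for chaperones, 0 to 12 for decay genes, 9 to 18 for G1 to S, 0 to 14 for G2 to M and 3 to 10 for M to G1. With 4 to 24 counts in WT, antisense levels there are limited by depth; read assignment between HHF copies limits their ratio.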
